A study of Mus musculus with 6 samples.

Results

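Skeletal muscle fibers fire and contract through ion channels in their surface membrane. Described here are the genes of potassium channels (*Kcn*), voltage-gated sodium channels (*Scn*), voltage-gated calcium channels (*Cacn*) and chloride channels and transporters of the CLC type (*Clcn*). Members were chosen by symbol and by depth, with 1 gene of such a symbol left out by name. A gene was taken in when its symbol began with *Kcn*, *Clcn*, *Cacn* or *Scn* and a digit and when its counts summed to at least 60 over the 6 libraries. Of 24532 genes in the table, 146 had such a symbol besides the one left out, and 74 reached the sum. The other 72 did not, of which 39 had no count in any library and 33 had some. Just inside the limit were *Kcnip2* with 65 counts and *Cacna2d2* with 66, and just outside it were *Kcne3* with 57 and *Kcnk13* with 53.

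An action potential in a fiber starts with sodium entry through the pore of the muscle sodium channel, which auxiliary beta subunits accompany, and spreads into the transverse tubules. There the voltage-gated calcium channel complex, built from a pore and its beta, alpha2delta and gamma subunits, senses the voltage and triggers calcium release from the sarcoplasmic reticulum. Voltage-gated potassium channels end the action potential, while chloride channels, inward rectifiers and ATP-sensitive potassium channels set the resting membrane and its readiness to fire again.

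The gastrocnemius (GAS) muscle, a mixed and mainly fast hind limb muscle, was taken from male C57BL/6 mice of about 20 weeks. The control group, called WT, carried *Sirt6* flox/flox without Cre (3 libraries), and the other group, labelled *Sirt6* KO, was *Myl1-Cre*; *Sirt6* flox/flox (3 libraries). Both groups thus carry the flox alleles. *Sirt6* encodes a nuclear deacetylase, and the question of the comparison is which transcripts differ when it is deleted in muscle fibers. *Myl1-Cre* is driven by the myosin light chain 1 promoter and is mainly active in fast fibers, and the other cell types of the tissue are not its target. Replicates are 3 separate libraries a group, and the p-values measure the spread between these libraries.

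The total count on genes lay between 44845763 and 63016899 per library, so that 1 count was worth between 0.0165 and 0.0212 CPM. CPM is the count divided by the library's total after TMM scaling (trimmed mean of M values) and serves to compare libraries, while FPKM is also per gene length and serves to compare genes. Fold changes and adjusted p-values are those of edgeR's quasi-likelihood test over 13801 genes with Benjamini-Hochberg adjustment, called at an adjusted p under 0.05. The targeted gene went against its label: *Sirt6* was at 2.77, 2.23 and 2.88 CPM in WT libraries 1 to 3 and at 7.81, 7.44 and 6.68 CPM in *Sirt6* KO libraries 1 to 3, with a rise of 1.48 on the log2 scale (SE 0.17, adjusted p = 0.0113). A gene-level count does not tell a deleted from an intact transcript, and every direction below is therefore that of the libraries labelled *Sirt6* KO. Fast-fiber markers dominated each library, with a summed level between 121085 and 202863 CPM. Slow-fiber markers differed within groups, at 3570, 2944 and 132 CPM in WT 1 to 3 and at 359, 2099 and 500 CPM in *Sirt6* KO 1 to 3. This sets WT library 3 apart from the other WT libraries, and *Sirt6* KO library 2 apart from the others of its group. In whole tissue, fewer cells of a type and less RNA per cell cannot be told apart.

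Few channel genes passed the test, and those that did ranged from some of the most abundant to some of the rarest. All 74 members passed the filter on low counts. Of them 9 were called (12.2%), against 16.2% of all genes tested. Among them 3, *Cacnb1* included, were called higher (4.05% of members, against 7.85% of all genes), and *Kcnv2*, *Scn2b*, *Kcnc1*, *Kcnab1*, *Kcnq1ot1* and *Kcnma1* were called lower (8.11%, against 8.39%). The share of channel genes called was thus close to or under that of the whole table. The median log2 fold change was −0.03 over the members, 37 above 0 and 37 below, and −0.02 over all genes tested. The groups did not overlap for 23 members (31.1%, against 40.0% of all genes), 11 of them higher and 12 lower. With any of WT 1, WT 2, *Sirt6* KO 1 or *Sirt6* KO 3 left out, between 0 and 1 member was called by edgeR (18 to 20 had an unadjusted p under 0.05), where 0.0580% to 3.28% of all genes were called. Without *Sirt6* KO 2 it was 4 members (5.41%, against 6.51% of all genes), and without WT 3 it was 23 (31.1%, against 33.2%). Both of these libraries stood apart from their groups in slow-fiber markers. The counts of members thus moved with those of the whole table. Those 23 included all 9 called with the 6 libraries.

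**Figure D1:**
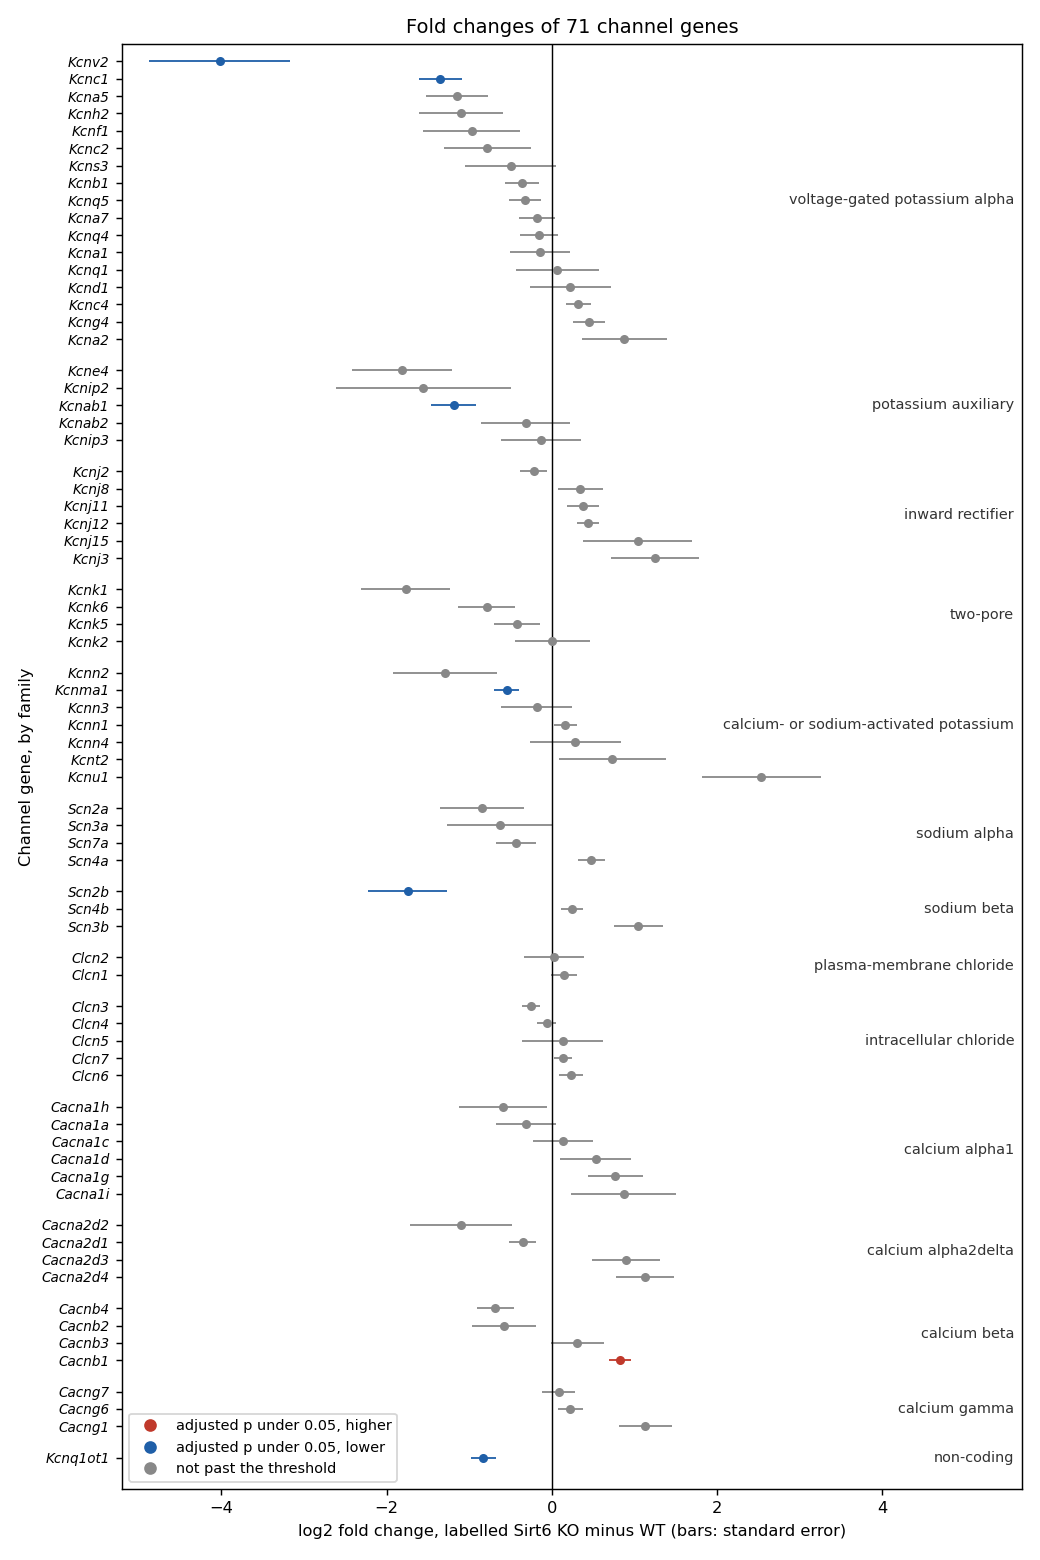
Log2 fold change (labelled *Sirt6* KO minus WT, horizontal axis) of 71 of the 74 channel genes, grouped by family and with bars of 1 standard error. The red point is *Cacnb1*, called higher, blue points are the 6 genes called lower and grey points the 64 not past an adjusted p of 0.05. Points fall evenly to both sides of 0, from −4.02 for *Kcnv2* to 2.54 for *Kcnu1*.

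Among potassium channel pores of the voltage-gated alpha type, the largest family with 18 members, *Kcnc1* and *Kcnv2* were called lower. *Kcnc1* (chromosome 7, 46396219 to 46438706 on GRCm38) encodes a pore of the *Kcnc* family, whose channels open only at strong depolarization and close fast. Its level was 91.2, 142 and 75.9 CPM in WT libraries 1 to 3 and 36.4, 50.2 and 34.8 CPM in *Sirt6* KO 1 to 3. Every WT library was above every library labelled *Sirt6* KO. The log2 fold change of *Kcnc1* was −1.35 (SE 0.26, adjusted p = 0.0196), from a mean of 103 ± 34.7 CPM to 40.5 ± 8.46 CPM (SD, n = 3 libraries each). The study follows the transcription factor CREB, and in the 250 bases before the RefSeq start of *Kcnc1* (GRCm38.p6) there was a TGACG, the short core of its motif, the cAMP response element. It starts 236 bases before that start, which is not the first of the gene, so that the match lies inside the span given above. It is shown in capitals, on the strand of the gene, because it is a match among the genes called.
*Kcnc1*, chr7:46396220-46396249, + strand: ctcacctcggtgTGACGggggcgcgggccc

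*Kcnc4*, a related pore known from skeletal muscle, was at 41.0, 56.8 and 40.9 CPM in WT and at 52.3, 60.1 and 61.0 CPM in *Sirt6* KO. Its groups overlapped, since WT 2 lay above *Sirt6* KO 1, and its log2 fold change of 0.32 did not pass the test (SE 0.15, adjusted p = 0.179). *Kcnc2* stayed under 1 CPM in all 6 libraries.

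The balance between *Kcnc1* and *Kcnc4* can be read per gene length inside each library. The FPKM of *Kcnc1* divided by that of *Kcnc4* was 0.927, 1.03 and 0.796 in WT and 0.283, 0.339 and 0.237 in *Sirt6* KO. The 2 genes were thus at near equal levels in WT, while *Kcnc4* led *Kcnc1* in each library labelled *Sirt6* KO. The ratio did not overlap between groups, at p = 0.1 in an exact permutation test, two-sided, the smallest p that 3 against 3 libraries allow. *Kcnc1* alone already separated the groups, so this p is no further evidence. The pairs behind the 2 ratios computed were chosen with results of these data known.

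*Kcnv2* (chromosome 19, 27322061 to 27337179) encodes a subunit that forms no channel alone and changes the gating of the pores it joins. It was at 2.23, 4.92 and 2.01 CPM in WT. In *Sirt6* KO it had no count in library 1 and was at 0.198 and 0.363 CPM in libraries 2 and 3, which are 12 and 20 counts. All WT libraries, with 111, 232 and 115 counts, lay well above these values. The log2 fold change of −4.02 was the largest among the 74 members and also among the least precise (SE 0.86, adjusted p = 0.0251).

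Among the other voltage-gated potassium pores, *Kcna7*, the most abundant in per-length units, took between 42.4% and 50.5% of the summed FPKM of these 18 genes. It was at 197, 229 and 161 CPM in WT and at 133, 224 and 163 CPM in *Sirt6* KO, with overlapping groups (log2 fold change −0.17, SE 0.22, adjusted p = 0.606). *Kcnq1*, a pore best known from heart and inner ear, was barely present, between 0.227 and 0.721 CPM over the 6 libraries, with a log2 fold change of 0.07 (SE 0.50, adjusted p = 0.935). Over the 18 genes the fold changes ranged from −4.02 to 0.88 on the log2 scale, with a median of −0.25. At an unadjusted p under 0.05, *Kcna5* and *Kcng4* passed as well, though neither was called.

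Auxiliary potassium subunits all had fold changes under 0, and 1 of the 5 was called. *Kcnab1* (chromosome 3, 64949212 to 65378225, where it overlaps the genes *A730090N16Rik* and *A330015K06Rik*) encodes a cytoplasmic beta subunit that speeds inactivation of *Kcna*-type channels. Its level was 8.88, 12.3 and 9.13 CPM in WT and 5.02, 2.79 and 5.50 CPM in *Sirt6* KO. The groups did not overlap, and the log2 fold change was −1.19 (SE 0.28, adjusted p = 0.0315). *Kcne4*, *Kcnip2*, *Kcnab2* and *Kcnip3* were not called. *Kcnip2*, which had no count in *Sirt6* KO 1 and 33 of its 65 counts in WT 1, had a log2 fold change of −1.55 (SE 1.06, adjusted p = 0.330).

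**Figure D2:**
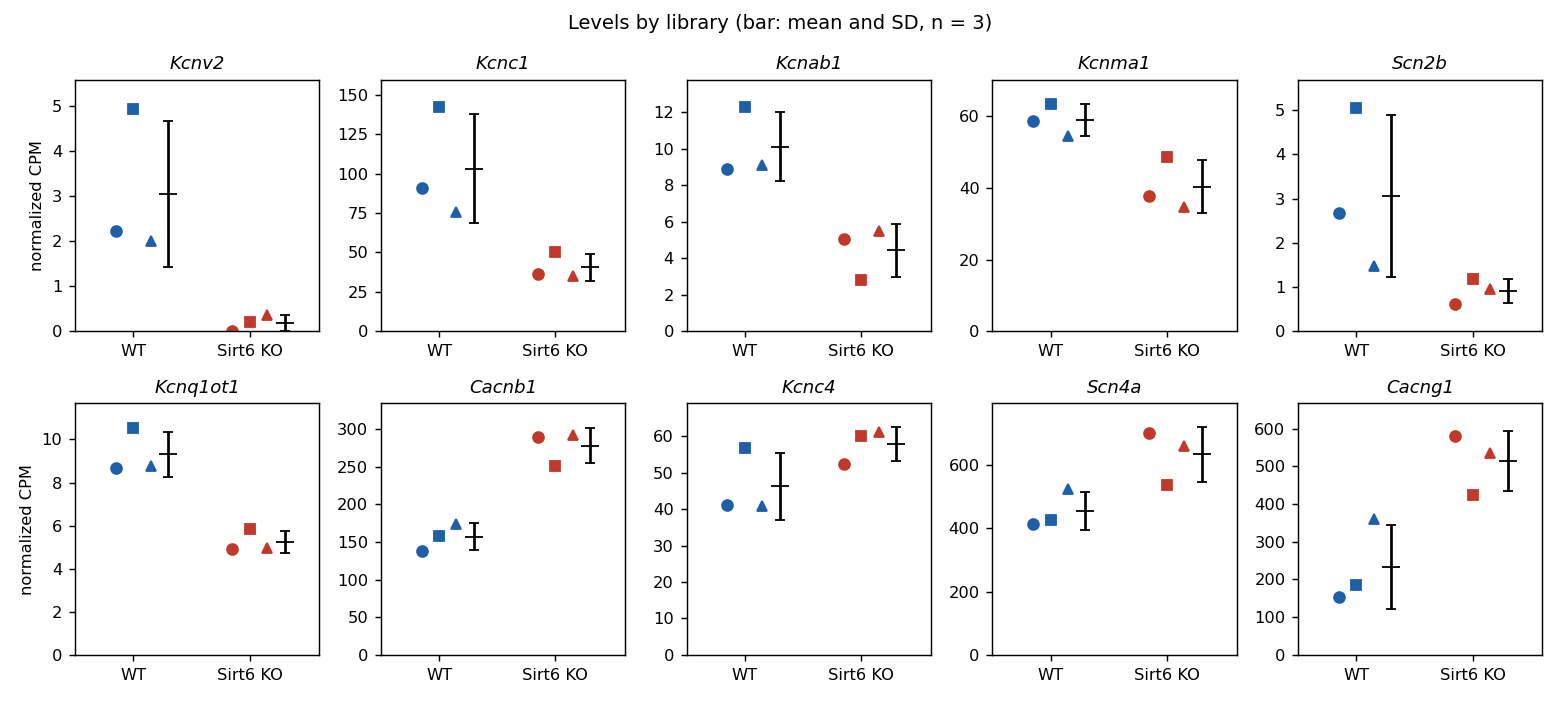
Normalized CPM (vertical axes from 0, a scale per panel) of 7 channel genes called and of *Kcnc4*, *Scn4a* and *Cacng1* in each library, with circles, squares and triangles for libraries 1, 2 and 3, blue for WT and red for those labelled *Sirt6* KO. Horizontal ticks and bars are the mean and SD (n = 3). WT library 2 was the highest of all for the 6 genes called lower, from 4.92 CPM for *Kcnv2* to 142 CPM for *Kcnc1*.

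*Kcnma1* (chromosome 14, 23292288 to 24005110, overlapping *4930519K11Rik*) encodes the pore of the large-conductance channel opened by calcium and voltage together. It was measured at 58.7, 63.4 and 54.4 CPM in WT and at 37.6, 48.7 and 34.6 CPM in *Sirt6* KO. Each WT library lay above all of *Sirt6* KO, and the log2 fold change was −0.55 (SE 0.15, adjusted p = 0.0466). The channel is also abundant in smooth muscle, and the summed level of 6 smooth muscle and pericyte markers was 418, 489 and 211 CPM in WT and 220, 230 and 197 CPM in *Sirt6* KO, so that WT 3 lay within the range of *Sirt6* KO. *Rgs5*, a pericyte gene that made up most of that sum in WT, was called lower (309.5, 348.2 and 149.8 CPM in WT and 134.4, 138.1 and 102.9 CPM in *Sirt6* KO, log2 fold change −1.10, adjusted p = 0.0481). *Acta2*, *Myh11* and *Cspg4* also had log2 fold changes under 0 (−0.71, −0.49 and −0.49), while those of *Notch3* and *Pdgfrb* were above 0 (0.74 and 0.34), and none of these 5 was called by edgeR (*Notch3* had an adjusted p of 0.0855). The part of these markers in the fall of *Kcnma1* was not tested. A gene for an auxiliary gamma subunit of the same channel, *Lrrc38*, was at 19.5, 14.0 and 16.5 CPM in WT and at 35.4, 33.8 and 44.1 CPM in *Sirt6* KO, and so was higher in all 3 (log2 fold change 1.18, SE 0.16, adjusted p = 0.0131).

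Of the other 6 calcium- or sodium-activated potassium channel genes none was called by edgeR, while *Kcnu1* passed an unadjusted p under 0.05 and was called by DESeq2. *Kcnn3*, a small-conductance channel that denervated fibers are known to express, was between 0.436 and 0.997 CPM in WT and between 0.472 and 0.891 CPM in *Sirt6* KO (log2 fold change −0.18, SE 0.43, adjusted p = 0.792). Other markers of denervation did not move one way: over 7 of them 1, *Chrna1*, a subunit of the acetylcholine receptor, was called higher (0.73 on the log2 scale) and 1, *Myog*, a myogenic transcription factor, lower (−0.96). Of the 7, 4 had a log2 fold change above 0, among them *Myh3* (0.74, adjusted p = 0.0535), and DESeq2 called 3. The 7 summed to 1064, 1090 and 1540 CPM in WT and to 1434, 1401 and 1541 CPM in *Sirt6* KO. Most of that sum was *Myh8* alone, at 990, 1012 and 1463 CPM in WT and 1342, 1312 and 1457 CPM in *Sirt6* KO, so that it says little about the other markers.

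No inward rectifier and no two-pore channel gene was called by edgeR. *Kcnj11*, the pore of the ATP-sensitive potassium channel and the leading inward rectifier here with 51.8% to 63.2% of the family's summed FPKM, was at 108, 119 and 172 CPM in WT and 166, 159 and 195 CPM in *Sirt6* KO. The groups overlapped through WT 3, at a log2 fold change of 0.38 (SE 0.19, adjusted p = 0.199). *Kcnj2*, an inward rectifier that helps to hold the resting potential, had a log2 fold change of −0.22 (SE 0.17, adjusted p = 0.374). Among the 6 inward rectifiers 2 passed an unadjusted p under 0.05 in edgeR and 1 was called by DESeq2. Among the 4 two-pore genes, which encode leak channels, 1 passed in each.

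The sodium channel pores were led by a single gene. *Scn4a* (chromosome 11, 106317545 to 106365559), the pore of the adult muscle channel, made up 97.9% to 99.5% of the summed FPKM of the 5 alpha genes. Its level was 413, 427 and 526 CPM in WT and 703, 538 and 662 CPM in *Sirt6* KO. Every library labelled *Sirt6* KO lay above every WT library, by a narrow margin between WT 3 and *Sirt6* KO 2, and the log2 fold change of 0.48 did not pass the test (SE 0.16, adjusted p = 0.0843).

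Beta subunits flank the pore and tune its gating and surface level, and *Scn2b* was called lower. *Scn2b* (chromosome 9, 45117876 to 45130070, overlapping *Gm10684*), rare in this tissue and best known from neurons, was at 2.67, 5.05 and 1.47 CPM in WT and at 0.615, 1.17 and 0.944 CPM in *Sirt6* KO. The groups did not overlap, though WT 3 lay close to *Sirt6* KO 2, and the log2 fold change was −1.74 (SE 0.48, adjusted p = 0.0480).

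Values of other cell types stood beside that of *Scn2b*. Markers of Schwann cells summed to 20.8, 30.6 and 11.5 CPM in WT and 9.64, 17.3 and 19.6 CPM in *Sirt6* KO, and 1 of 6 was called lower. Of 7 neuron markers *Stmn2* alone passed the filter on low counts, at 4.05, 4.96 and 2.09 CPM in WT and 1.52, 2.57 and 1.92 CPM in *Sirt6* KO (log2 fold change −0.88, adjusted p = 0.125). *Snap25* and *Rbfox3* were at 0 in every library, and the other 4 stayed near 0. Their part in the fall of *Scn2b* was not tested.

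*Scn3b* was not called by edgeR but passed an unadjusted p under 0.05 and was called by DESeq2. *Scn4b*, the fourth most abundant of the 74 genes per length, was at 431, 470.1 and 374 CPM in WT and 526, 503 and 485 CPM in *Sirt6* KO. The libraries labelled *Sirt6* KO were all above WT, and the log2 fold change of 0.25 did not pass the test (SE 0.13, adjusted p = 0.222).

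Of the calcium channel complex of the transverse tubule, 1 subunit gene was called. *Cacnb1* (chromosome 11, 98001508 to 98023034, overlapping *Rpl19*), the beta subunit that muscle excitation-contraction coupling depends on, was at 139, 158 and 175 CPM in WT and 290.3, 251 and 293 CPM in *Sirt6* KO. The groups lay far apart, with a log2 fold change of 0.83 (SE 0.13, adjusted p = 0.0151), the lowest adjusted p of the 74 genes. It made up 98.5% to 99.4% of the summed FPKM of the 4 beta genes.

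*Cacna2d1*, which encodes the alpha2delta subunit of the same complex, did not pass the test. Its level was 668, 611 and 829 CPM in WT and 585, 480.3 and 589 CPM in *Sirt6* KO, with no overlap and a log2 fold change of −0.35 (SE 0.17, adjusted p = 0.174). *Cacnb1* divided by *Cacna2d1*, on the FPKM scale, was 0.771, 0.926 and 0.803 in WT and 1.94, 2.06 and 1.98 in *Sirt6* KO. *Cacna2d1* therefore exceeded *Cacnb1* in each WT library and was below it in each library labelled *Sirt6* KO. Each gene alone already separated the groups, in opposite directions, so the ratio had to separate them too. Its p of 0.1 in the exact permutation test, two-sided, the smallest it allows, was thus fixed by the choice of the pair. The ratio was not corrected for GC content, which was 59.7% for *Cacnb1* and 40.7% for *Cacna2d1* and is taken up below.

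*Cacng1* (chromosome 11, 107703218 to 107716476), the muscle gamma subunit, had the highest FPKM of all 74 channel genes, at a mean of 263.8. It was at 155, 186 and 360.1 CPM in WT and at 581, 425 and 535 CPM in *Sirt6* KO. The groups did not overlap, WT 3 lay nearest to *Sirt6* KO, and the log2 fold change of 1.14 came to an adjusted p of 0.0501 (SE 0.32). With WT 3 left out the log2 fold change of *Cacng1* was 1.59 (adjusted p = 0.00461). Of the 6 fits with 1 library left out, this alone called *Cacng1*. The others had an adjusted p between 0.0733 and 0.147. Of 9 other alternative fits 6 called it, and with a trend over GC content removed it came to 0.93 (adjusted p = 0.107). *Cacng6*, another gamma subunit found in muscle, overlapped between groups with a log2 fold change of 0.23 (SE 0.15, adjusted p = 0.311).

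Of the 6 alpha1 pore genes among the members none was called by edgeR or by DESeq2, nor did any pass an unadjusted p under 0.05. Each stayed at a few CPM or less. *Cacna1h*, a low-voltage-activated pore found in developing muscle, was at 1.34, 1.44 and 0.384 CPM in WT and 0.461, 0.693 and 0.944 CPM in *Sirt6* KO (log2 fold change −0.59, SE 0.53, adjusted p = 0.460).

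**Figure D3:**
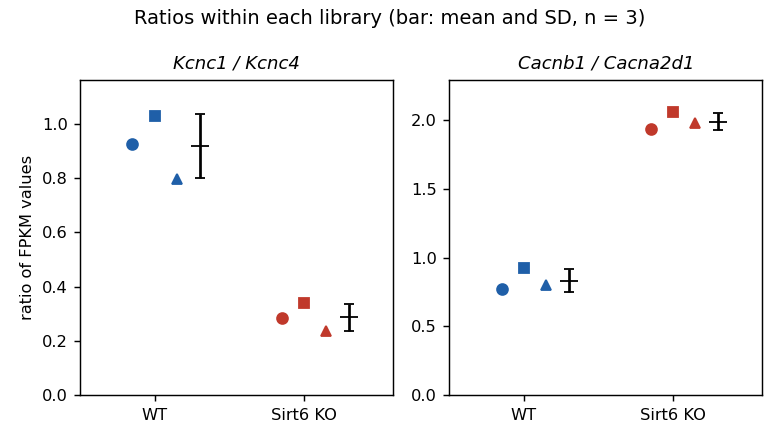
Ratio of FPKM values of 2 pairs of channel genes within each library (vertical axes from 0), with circles, squares and triangles for libraries 1, 2 and 3, blue for WT and red for those labelled *Sirt6* KO, and the mean and SD (n = 3) beside them. The *Cacnb1* to *Cacna2d1* ratio ran from 0.771 to 0.926 in WT and from 1.94 to 2.06 in *Sirt6* KO, and the *Kcnc1* to *Kcnc4* ratio from 0.796 to 1.03 in WT and from 0.237 to 0.339 in *Sirt6* KO.

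No chloride channel or transporter gene was called. *Clcn1*, the channel that carries most of the resting conductance of a muscle fiber, was at 130.3, 145 and 182 CPM in WT and at 168, 149 and 190.1 CPM in *Sirt6* KO. The groups overlapped, and the log2 fold change was 0.15 (SE 0.16, 95% interval from −0.23 to 0.53, adjusted p = 0.540). *Clcn1* held 98.0% to 99.5% of the summed FPKM of *Clcn1* and *Clcn2*. Of the 5 intracellular transporters, *Clcn3* to *Clcn7*, none was called by edgeR or DESeq2, and *Clcn3* alone passed an unadjusted p under 0.05 in edgeR. *Clcn7*, the lysosomal chloride and proton exchanger, had a log2 fold change of 0.14 (SE 0.11, adjusted p = 0.383), and *Clcn4*, a transporter of the same group, one of −0.06 (SE 0.11, adjusted p = 0.735). *Clcn4* is the channel gene whose promoter held the full cAMP response element, 76 bases before a RefSeq start, and the site is shown with the element in capitals.
*Clcn4*, chr7:7299615-7299644, − strand: cctcccggtggTGACGTCAtttgaaagaag
Its level was 87.9, 94.8 and 97.1 CPM in WT and 99.6, 83.0 and 85.8 CPM in *Sirt6* KO, with overlapping groups.

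The symbols also take in a gene that is no channel. *Kcnq1ot1* (chromosome 7, 143213111 to 143296547) is a long non-coding RNA that runs antisense inside *Kcnq1* and, in development, silences neighbouring genes on the paternal chromosome. It was measured at 8.68, 10.5 and 8.76 CPM in WT and at 4.92, 5.84 and 4.98 CPM in *Sirt6* KO. Both groups were tight and did not overlap, with a log2 fold change of −0.83 (SE 0.15, adjusted p = 0.0184). Whether the counting used the strand is not given in the sources used here, and reads of *Kcnq1ot1* and of unspliced *Kcnq1* can then not be told apart. The core of the cAMP response element lay on the opposite strand, 42 bases before its RefSeq start, and is shown as the other match among the genes called.
*Kcnq1ot1*, chr7:143296572-143296601, − strand: tcgtggctgccaCGTCAccaaggtcttggt

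The error of a fold change was larger for the rare channel genes. By mean FPKM, 31 members were at 1 or more and 43 under 1. The median standard error of the log2 fold change was 0.17 in the first set, of which 6 were called, and 0.50 in the second, of which 3 were called (*Kcnv2*, *Scn2b* and *Kcnq1ot1*). Of the 65 genes not called, 24 had a 95% interval of the log2 fold change between −1 and 1. The interval of the other 41 reached past 1 in at least 1 direction. Another 10 genes had an adjusted p under 0.1: *Cacng1*, *Scn3b*, *Kcnu1*, *Kcnk1*, *Cacna2d4*, *Kcnj12*, *Cacnb4*, *Kcna5*, *Kcne4* and *Scn4a*, all 10 of which DESeq2 called.

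**Figure D4:**
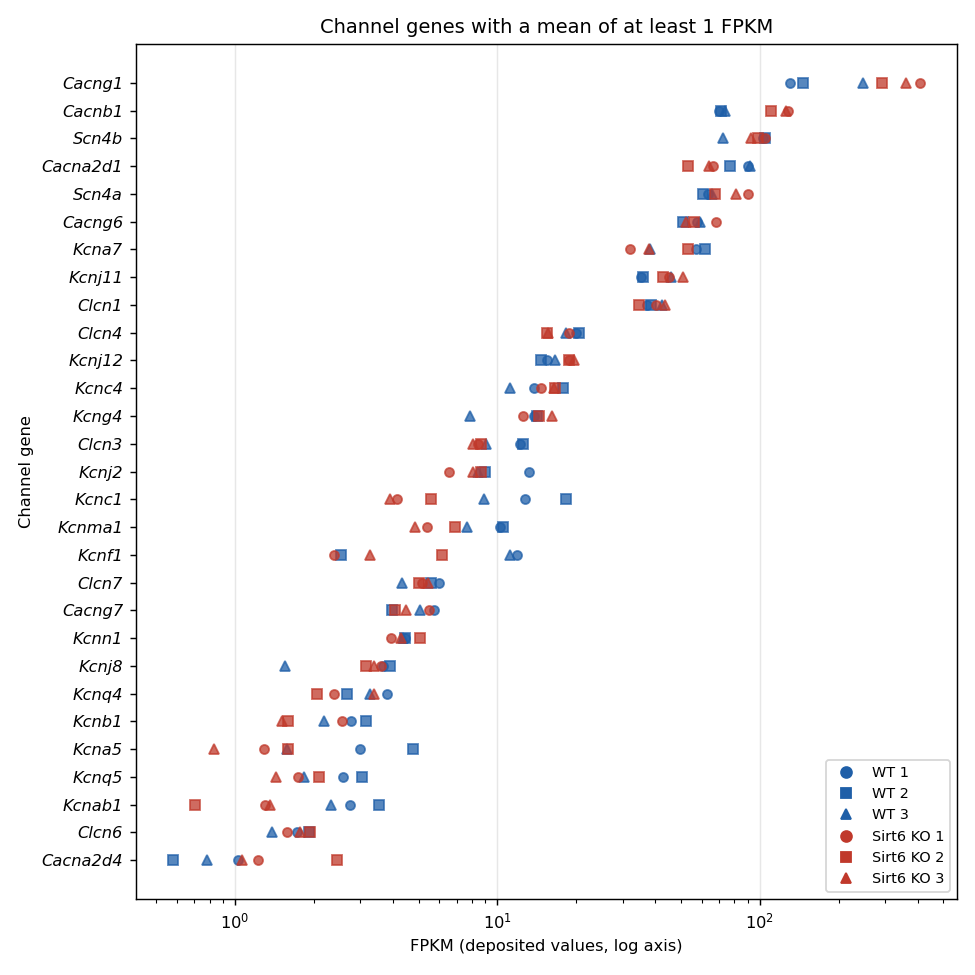
FPKM (log axis) in each of the 6 libraries for 29 channel genes with a mean of at least 1, ordered by that mean, with circles, squares and triangles for libraries 1, 2 and 3, blue for WT and red for those labelled *Sirt6* KO. *Cacng1* (mean 263.8) leads, and colors separate, among others, for *Cacnb1* and *Cacng1* to the right and for *Kcnc1*, *Kcnab1* and *Kcnma1* to the left.

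Base composition of the transcript differed between the directions of the calls, on few genes and with *Kcnc1* apart. The GC content of the longest transcript was 59.7% in *Cacnb1*, called higher. It was 44.0% to 57.4% in the 5 genes called lower that had a value (median 48.3%). The median was 53.0% in the genes not called and 49.8% over all genes tested. *Kcnc1* was the highest of the 5 at 57.4%, above both of the last medians. Across 13271 genes, which are no independent replicates, fold change and GC content had a Spearman's rho of 0.34. With a GC trend removed from each library, 0 members were called higher by edgeR (7 were higher at an unadjusted p under 0.05, and DESeq2 on uncorrected counts called 9) and 3 lower, together 4.05% of members against 7.01% of all genes. *Kcnc1* (−1.58, adjusted p = 0.0286) and *Kcnv2* (−4.00, adjusted p = 0.0407) were still called, and so was *Kcnq1ot1*, which has no GC value and was not corrected. *Cacnb1* came to 0.57 (adjusted p = 0.0517) and *Cacna2d1* to −0.05 (adjusted p = 0.861), while the ratio of these genes given above was not corrected.

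**Figure D5:**
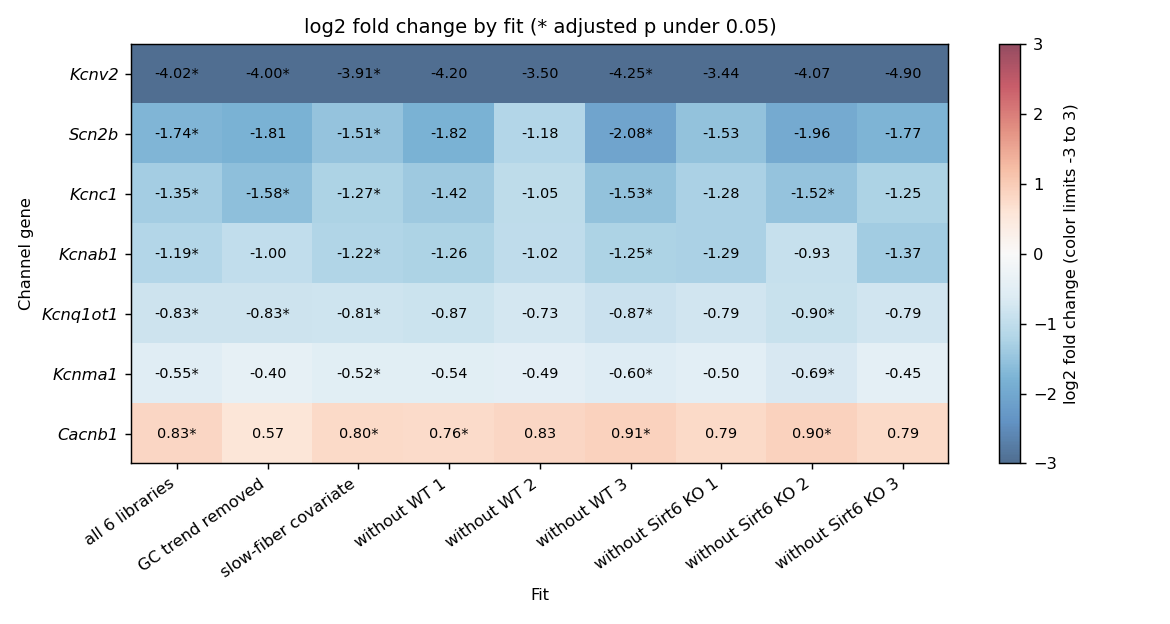
Log2 fold change (labelled *Sirt6* KO minus WT) of 7 channel genes called, in rows, under the fit of all 6 libraries, with a GC trend removed, with slow-fiber marker level as a covariate and with each library left out, in columns. Stars mark an adjusted p under 0.05 in that fit, and colors run from −3 (blue) to 3 (red). The sign of each gene is the same in every column, and no gene kept its star when WT 2, *Sirt6* KO 1 or *Sirt6* KO 3 was left out.

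Slow-fiber markers and the channel genes were set side by side in a further fit. No slow-fiber marker was called by edgeR or DESeq2 or passed an unadjusted p under 0.05 (7 markers, median log2 fold change −1.12). The same held for the 7 fast-fiber markers in edgeR (median 0.39), of which DESeq2 called 1. With the slow-fiber level of each library as a covariate, 22 members were called, 12 higher and 10 lower (29.7%, against 29.6% of all genes tested), among them all 9 of the main comparison. *Kcnc1* came to −1.27 (adjusted p = 0.00512) and *Cacnb1* to 0.80 (adjusted p = 0.00327). Without WT 3, *Kcnc1* was at −1.53 (adjusted p = 0.00771) and *Cacnb1* at 0.91 (adjusted p = 0.00565).

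Other cell types in the tissue showed these levels. Endothelial markers summed to 151 to 275 CPM in WT and 177 to 180 CPM in *Sirt6* KO, fibroblast markers to 468 to 864 and 547 to 576, and macrophage markers to 25.2 to 49.5 and 30.0 to 35.4. Erythroid markers lay between 46.6 and 297 CPM in WT and between 80.2 and 181 CPM in *Sirt6* KO, and adipocyte markers between 1.62 and 19.1 and between 7.79 and 35.8. None of these 5 lists held a gene called by edgeR, though 2 endothelial and 2 fibroblast genes had an unadjusted p under 0.05 and DESeq2 called 1 of each. Among 3 satellite cell markers *Pax7* and *Myf5* were called higher (1.28 and 1.33 on the log2 scale), while *Calcr* had a log2 fold change of −0.63 (adjusted p = 0.256). The 3 summed to 2.48 to 3.92 CPM in WT and 4.50 to 6.68 CPM in *Sirt6* KO. What part these cells have in the channel values was not tested.

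Genes that work with the channels were called by edgeR at a lower share than the whole table in both lists below, each on few calls. Of 31 partners and regulators of the pores, 24 were tested, with 2 called higher, 1 lower (12.5%, against 16.2% of all genes) and a median log2 fold change of 0.26. Of the 24, 7 had an unadjusted p under 0.05 and DESeq2 called 7, where it called 25.6% of all genes. With DESeq2 the share of this list was thus not lower. Besides *Lrrc38*, *Calm3*, 1 of 3 calmodulin genes, was higher, at 229, 237 and 408 CPM in WT and 680, 496 and 593 CPM in *Sirt6* KO (1.02, SE 0.25, adjusted p = 0.0370). *Gem*, a small GTPase that binds calcium channel beta subunits and restrains the channel, was lower, at 5.65, 3.27 and 1.99 CPM in WT and 1.13, 1.37 and 0.708 CPM in *Sirt6* KO (−1.76, SE 0.43, adjusted p = 0.0354). Both genes separated the groups. Of 25 genes of other channels, pumps and cotransporters, 20 were tested and 1 was called, the hyperpolarization-activated channel gene *Hcn2*, which was higher at 0.822, 0.742 and 0.838 CPM in WT and 2.05, 1.93 and 1.96 CPM in *Sirt6* KO (1.30, SE 0.23, adjusted p = 0.0166). None of the 20 was called lower by edgeR (5 had an unadjusted p under 0.05 in either direction, and DESeq2 called 2).

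The promoter matches shown above come from a search of all members. RefSeq (GRCm38.p6) gave 82 starts for 54 of the 74 genes, and the 250 bases before each start were read on both strands for the cAMP response element TGACGTCA, for its core TGACG, which the full element contains, and for the E-box CAGCTG, a motif that myogenic factors bind. The full element was before 1 of the 82 starts (1.22%), against 1.55% of all 32851 starts and 2.40% of those of genes tested. The core was before 16 (19.5%, against 17.8% and 25.5%), and *Kcnc1* and *Kcnq1ot1* were the genes called among them. The E-box was before 21 starts (25.6%, against 13.0% and 12.5%), which belong to 15 genes. Windows of neighbouring starts can overlap, as in *Kcnc2*, so that 1 site was counted more than once. No E-box was before the 7 starts of 5 genes called lower or the 2 starts of 1 gene called higher, and the other genes called had no promoter in this search. A match describes letters in this window, and nothing about binding was measured here.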

How the data were processed

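RNA-seq of GAS muscle from 3 WT and 3 libraries labelled *Sirt6* KO was analysed. The authors deposited 1 table with a read count, an FPKM and a TPM value per gene and library. Counts were whole numbers per gene from StringTie, the FPKM values deposited by the authors divide these by transcript length and depth, and the deposited TPM values, also per length, were not used. The submitters' processing notes name HISAT2 2.1.0, Bowtie2 2.3.4.1 and StringTie 2.1.3b, while the study's reporting summary names STAR. The labels and the methods name different TruSeq kits, and the methods and the reporting summary different *Sirt6* flox lines.

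Counts were tested in R 4.3.3 with edgeR 4.0.16 (filterByExpr with a minimum count of 10, TMM, quasi-likelihood fit on the group) over all 13801 genes that passed, with Benjamini-Hochberg adjustment at 0.05. The script was tested on simulated data. Levels are TMM-normalized CPM, errors are SDs over 3 libraries, and intervals are 95%. Exact permutation tests were two-sided. Alternatives were DESeq2 1.42.0, its size factors, other filters, limma 3.58.1 on quantile-normalized log2(FPKM + 1), the scale of the study's methods, and on log2(FPKM + 0.1), a lowess GC trend per library (span 0.3, GENCODE M21, 96.2% of genes tested), a slow-fiber covariate, a block and leaving out each library. Coordinates and promoters are those of RefSeq on GRCm38.p6, matched by gene identifier (24462 of 24532 genes).

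The members and lists were chosen with earlier results of these data known. Genes named with values are the 10 members highest in mean FPKM, the members called, channels with a textbook role in muscle or denervation, *Kcnq1* and *Kcnq1ot1*, and the 2 genes to either side of the limit of 60 counts. *Kcnc2*, *Clcn3* and *Clcn4*, and other members listed by symbol with the test they passed, were added after their values were seen. The partner, pump and marker lists are described by counts, medians and summed levels, with values for genes called and, added after their values were seen, for other genes of the smooth muscle, neuron and satellite cell lists. The results of some genes with such a symbol are not reported here.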

Additional observations from a re-analysis of the deposited data

How the results depend on the processing

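Over 23 named genes and 15 alternatives, 282 of 345 values kept their direction and their side of the threshold, 41 lost the call, 15 gained it and 7 changed sign. Members called higher numbered 9 with DESeq2, 7 with limma on either FPKM scale, 0 with the GC trend removed, 12 with the slow-fiber covariate, 6 with the replicate block and between 0 and 10 with 1 library left out. Members called lower numbered 10 with DESeq2, 3 with the GC trend removed, 10 with the slow-fiber covariate and between 0 and 13 with 1 library left out. The whole table moved alike: 25.6% of all genes were called with DESeq2, 19.0% with limma, 7.01% with the GC trend removed and 29.6% with the slow-fiber covariate, against 16.2% of them in the main comparison. Without a filter on low counts *Kcnma1* and *Scn2b* were among those not called, where 17190 genes were tested. Limma on FPKM lost, among others, *Kcnq1ot1* and *Scn2b*. With 1 library left out the 9 genes called kept their direction, and *Cacnb1* was called in 3 of 6 such fits, *Kcnc1*, *Kcnma1* and *Kcnq1ot1* in 2 and the other 5 in 1. The cause of these losses was not tested.

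Genes that changed sign were not called in any of these fits. With the GC trend removed *Kcnj2* came to 0.063, *Clcn7* to −0.038 and *Kcnq1* to −0.16. With 1 library left out *Kcnn3* ranged from −0.47 to 0.10 and *Kcnq1* from −0.26 to 0.58. Whether the replicate numbers pair the libraries is not stated in the labels. Deviations from the group means correlated at −0.11, 0.26 and 0.16 between same-numbered libraries and at −0.34 to 0.21 between differently numbered ones. With so few libraries these correlations cannot decide it. The replicate block called 12 members against 9 (16.2% against 12.2%, where all genes went from 16.2% to 13.9%), with *Kcnab1* lost (adjusted p = 0.0592) and *Cacng1*, *Kcna5*, *Kcnj3* and *Kcnu1* gained. Genes under 1 FPKM, with a median standard error of 0.50, limit what these libraries can show.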
